A study of Rattus norvegicus with 16 samples.

Results

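The unfolded protein response genes described here are 10 rat genes, Hspa5, Hsp90b1, Hyou1, Calr, Pdia4, Herpud1, Xbp1, Atf4, Ddit3 and Trib3. They were taken by symbol: every probe set that the platform annotation assigns to one of these genes was used, which gave 13 probe sets of the 15866 on the array that are not controls. Hyou1 had 2 probe sets, Trib3 had 3 and each of the others had 1. All 13 matched a gene of the same symbol in RefSeq. After the dimmest 30% of probe sets were left out, 12 of the 13 remained among 11106 tested probe sets of 8060 genes, and 1 dim Trib3 probe set did not.

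Lung total RNA from 2 kinds of rat was measured on 16 arrays. Spontaneously hypertensive (SH) rats, inbred animals that inherit high blood pressure, and Sprague Dawley (SD) rats, an outbred stock, each breathed sulfur dioxide (SO2), an irritant gas, or air. The 4 groups were SH rats in SO2, SH rats in air, SD rats in SO2 and SD rats in air, with 4 biological replicates in each. The sources used here do not give dose, duration, age or sex. The lung label was checked against surfactant and airway genes, and Sftpc, the type II cell surfactant protein C, had signals from 24004 to 45111 over the 16 arrays.

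The endoplasmic reticulum (ER) folds secreted and membrane proteins with the help of chaperones and disulfide-forming enzymes. When unfolded protein accumulates there, the membrane sensors PERK, IRE1 and ATF6 start the unfolded protein response. IRE1 splices the Xbp1 messenger RNA, ATF6 is cut into a transcription factor, and PERK phosphorylates eIF2alpha, which slows translation while that of Atf4 increases. The resulting factors raise transcription of chaperones and of ER-associated degradation genes, and prolonged signalling adds Ddit3, which encodes the pro-apoptotic factor CHOP. In the lung, type II cells, club cells, mucous cells and plasma cells have large secretory loads. The arrays read RNA levels of whole tissue, so Xbp1 splicing and Atf4 translation were not read, and fewer cells of a type and less RNA per cell cannot be told apart.

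The promoters of these genes are known for short shared elements, and these are shown because 6 of the 10 genes hold 1 of 2 such elements, ERSE or ERSE-II, with ERSE-II in Hyou1, the gene described first. The windows run from 250 bases before to 50 bases after each annotated start, from RefSeq on build GRCr8, with the first transcribed base counted as position 0. Each motif was searched on both strands. The ER stress response element (ERSE) was searched as CCAAT, then 9 bases of any kind, then CCACG, and 22 of 33469 promoters (0.0657%) held it. It was found in 4 of the 10 genes. These matches are given in the motif's own 5′ to 3′ direction, with the fixed letters in capitals, and Hsp90b1 had 2.
Hspa5, chr3:38452973-38452991: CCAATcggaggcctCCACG
Hsp90b1, chr7:23012451-23012469: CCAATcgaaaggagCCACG
Hsp90b1, chr7:23012347-23012365: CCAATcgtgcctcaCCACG
Xbp1, chr14:84604558-84604576: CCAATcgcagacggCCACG
Calr, chr19:40213135-40213153: CCAATcagggtcgaCCACG
The Hspa5 match, the Xbp1 match and the first Hsp90b1 match lay on the gene's own strand, at positions -43 to -25, -65 to -47 and -176 to -158. The second Hsp90b1 match, at -72 to -54, and the Calr match, at -232 to -214, lay on the opposite strand.

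ERSE-II, searched as ATTGG, then 1 base of any kind, then CCACG, was held by 17 of 33469 promoters (0.0508%) and by 2 of the 10 genes, Hyou1 and Herpud1. The amino acid response type element CARE, to which ATF4 binds with C/EBP partners, was searched as TGATGNAA. It was held by 1332 promoters (3.98%) and by Herpud1 and Trib3 among the 10 genes. The full windows of Hyou1 (plus strand, chr8:53602632-53602931) and Herpud1 (minus strand, chr19:10614658-10614957) are printed 5′ to 3′ in the direction of transcription, with the fixed letters of ERSE-II and CARE in capitals.
Hyou1: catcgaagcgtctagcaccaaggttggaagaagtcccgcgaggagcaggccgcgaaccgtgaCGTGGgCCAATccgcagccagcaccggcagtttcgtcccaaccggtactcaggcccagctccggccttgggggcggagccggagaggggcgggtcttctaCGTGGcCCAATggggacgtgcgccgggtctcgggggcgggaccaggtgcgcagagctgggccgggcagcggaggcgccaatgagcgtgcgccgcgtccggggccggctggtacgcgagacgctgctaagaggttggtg
Herpud1: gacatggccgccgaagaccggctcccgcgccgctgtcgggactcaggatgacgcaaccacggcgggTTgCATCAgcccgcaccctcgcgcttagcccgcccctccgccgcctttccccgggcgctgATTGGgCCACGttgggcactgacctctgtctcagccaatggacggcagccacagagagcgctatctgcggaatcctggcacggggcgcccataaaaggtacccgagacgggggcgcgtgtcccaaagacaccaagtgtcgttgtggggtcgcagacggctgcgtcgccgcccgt
Both Hyou1 matches to ERSE-II, at positions -188 to -178 and -88 to -78, lay on the opposite strand, so the printed letters are the reverse complement of the motif. The first overlapped a match to the UPRE core TGACGTGG at -191 to -184, a motif held by 199 promoters (0.595%). In Herpud1 ERSE-II lay at -124 to -114 on the gene's own strand and CARE at -184 to -177 on the opposite strand. The other annotated Hyou1 start, further downstream, gave a window without ERSE, ERSE-II or CARE. The CCACG end shared by ERSE and ERSE-II was found in 9 of the 10 genes and in 31.6% of all promoters. No ERSE, ERSE-II or CARE letters were in the Pdia4, Ddit3 and Atf4 windows.

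Values are the deposited signals on a linear scale, to which the array software had applied a common scaling. The mean of each array without its lowest 2% and highest 2% of probe sets, controls included, was 500.1. Array medians, without controls, lay between 250.3 and 281.8. Differences are on the scale of log2(signal + 16), from limma fitted over all 11106 probe sets and 16 arrays with 1 mean for each group, which left 12 residual degrees of freedom. Benjamini-Hochberg adjustment ran over all of them, and calls needed an adjusted p under 0.05. The actin 3′ to 5′ signal ratio, a measure of RNA integrity, averaged 2.14 ± 0.770 in SH rats in SO2, 1.78 ± 0.400 in SH rats in air, 1.91 ± 0.689 in SD rats in SO2 and 1.53 ± 0.161 in SD rats in air (SD, n = 4 each). The array of SD air replicate 2 went against its label: it lay nearer to SH than to SD rats on 14 of 17 probe sets that separated the strains in SO2. Terf2ip, a telomere protein gene among the clearest strain markers, had 693.8 on it, against 425 to 733 on the SH air arrays and 1982 to 2363 on the other SD air arrays. The members' SO2 effects in SD rats and strain differences in air are given with and without it, and group means, intervals and the medians of lists include it.

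Hyou1 was the member with the widest differences between groups. It encodes the large ER chaperone ORP150, also called GRP170, which works as a nucleotide exchange factor for the Hspa5 product. Its mean signal was highest in SD rats in SO2 on both probe sets, and 1 of the 2 passed the test, lower in SH than in SD rats under SO2. On probe set 1371442_at, SH rats had 316, 436, 510.1 and 426 in SO2, against 489.8, 333, 403 and 496 in air. SD rats had 992, 538, 1037 and 898 on this probe set in SO2, against 265, 279, 381 and 767 in air. SD air replicate 4 lay with the SD rats in SO2, the other 3 SD air arrays lay below all 4 of them, and the 2 SH groups spanned almost the same range. The group means were 422 ± 79.9 in SH rats in SO2, 431 ± 77.6 in SH rats in air, 866 ± 226 in SD rats in SO2 and 423 ± 235 in SD rats in air (SD, n = 4 each). The 3 lower means differed by less than their spread.

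On probe set 1370665_at, SH rats had 125, 160.2, 123 and 198 in SO2, against 162, 201, 224 and 249 in air. SD rats had 283, 203, 375 and 412 on it in SO2, against 172, 193, 186 and 227 in air. Here the highest SO2 arrays of SD rats were replicates 3 and 4, and replicate 2 lay within the range of the air arrays. The group means were 151 ± 35.2 in SH rats in SO2, 209 ± 37.0 in SH rats in air, 318 ± 94.1 in SD rats in SO2 and 194 ± 23.7 in SD rats in air (SD, n = 4 each). SD rats in SO2 were highest and SH rats in SO2 lowest, and both air groups, in between, differed by less than their spread. The 2 probe sets correlated at r = 0.72 over the 16 arrays, which share the exposure groups, and at r = 0.48 once group means were taken away.

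**Figure D1:**
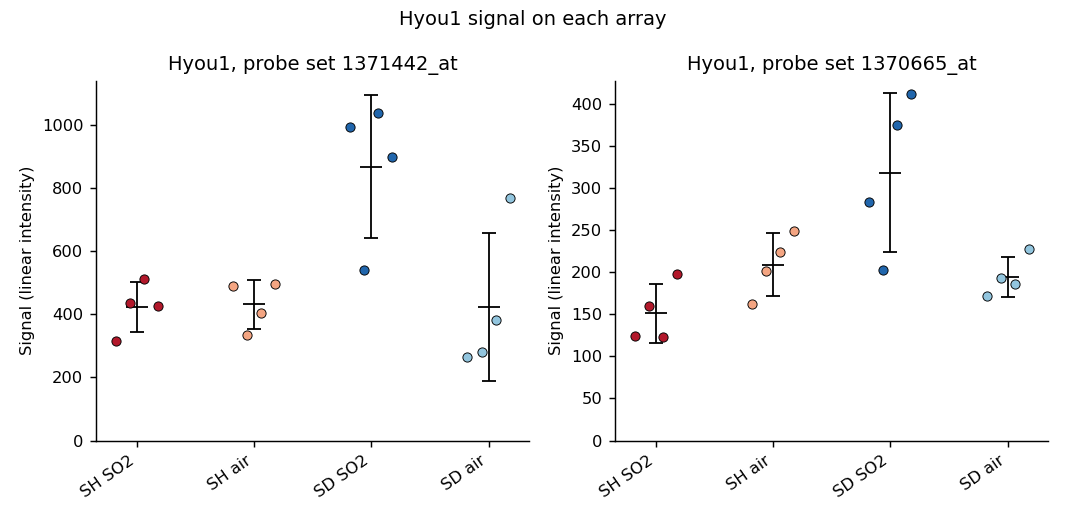
Hyou1 signal (linear intensity, vertical axis from 0) on each of the 16 arrays for probe sets 1371442_at and 1370665_at, with points for arrays and bars for the mean and SD of each group (n = 4). On both, the SH SO2 arrays (316 to 510.1 and 123 to 198) lie below all 4 SD SO2 arrays (538.2 to 1037 and 203.1 to 412), and the SD air group overlaps the SD SO2 group.

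Under SO2, the signal of 1370665_at was lower in SH than in SD rats by a log2 difference of -0.97 (SE 0.22, 95% confidence interval -1.43 to -0.52), 0.509 times the SD level, with an adjusted p of 0.0357. For 1371442_at the difference was -0.99 (SE 0.27, interval -1.54 to -0.43) with an adjusted p of 0.114, which did not pass. On both probe sets all 4 SH arrays lay below all 4 SD arrays, as did 2.76% of all tested probe sets. These were also the 2 of 12 with an unadjusted p under 0.05, beside 10.1% of the table. Hyou1 1370665_at was the only member probe set of 12 called in this comparison, where 0.405% of tested probe sets were called lower, 0.405% higher and 0.81% in either direction. In air the strains differed by 0.14 (SE 0.27) and 0.090 (SE 0.22) on 1371442_at and 1370665_at, smaller than the spread, with adjusted p-values of 0.971 and 0.976. They were -0.0077, of the other sign, and 0.088 without SD air replicate 2.

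The call on 1370665_at depended on which arrays were used. Leaving out SH SO2 replicate 1, 2 or 3, SH air replicate 2 or 3, or SD SO2 replicate 1, 3 or 4 moved its adjusted p to 0.0995, 0.0758, 0.128, 0.0524, 0.0503, 0.0633, 0.122 and 0.131 in that order, with differences between -1.01 and -0.84. Its adjusted p ranged from 0.0110 to 0.131 over all alternatives, and it was 0.0393 (difference -0.93) with the actin ratio as a covariate, 0.0743 with no filter on dim probe sets and 0.0392 without SD air replicate 2. The other probe set, 1371442_at, passed without SD SO2 replicate 2 (-1.19, adjusted p = 0.0380) and without SD air replicate 4 (-0.99, adjusted p = 0.0175), and its adjusted p otherwise ranged up to 0.252. Its difference with the actin ratio as a covariate was -0.88 (adjusted p = 0.0607). SD SO2 replicate 2 had an actin ratio of 2.94, against 1.47 to 1.63 on the other arrays of its group. SH SO2 replicate 1 had the highest ratio of all arrays, 3.12. Without SH SO2 replicate 1 the difference was -0.86 (adjusted p = 0.237) on 1371442_at and -0.90 on 1370665_at.

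Within SD rats, Hyou1 signal in SO2 was 2.14 times that in air on 1371442_at and 1.55 times on 1370665_at, and neither passed the test. The log2 differences were 1.10 (SE 0.27, interval 0.54 to 1.65, adjusted p = 0.329) and 0.63 (SE 0.22, interval 0.18 to 1.08, adjusted p = 0.470). By p, 1371442_at was at rank 18 of the 11106 probe sets in this comparison, where 0 probe sets were called. Without SD air replicate 4, the array that had 767 units, its difference was 1.42 with an adjusted p of 0.0184. Leaving out 1 array at a time gave 0 to 3 calls over the table in this comparison. Without SD air replicate 1 or 3 the difference of 1371442_at was 0.93 or 1.09 (adjusted p = 0.485 or 0.501). With the actin ratio as a covariate it was 1.30 (adjusted p = 0.109). Without SD air replicate 2 it was 0.95 (adjusted p = 0.362), and that of 1370665_at was 0.63 (adjusted p = 0.501). Within SH rats the differences were -0.029 (SE 0.27, adjusted p = 0.993) and -0.43 (SE 0.22, adjusted p = 0.949) on 1371442_at and 1370665_at. The SO2 effect in SH rats minus that in SD rats was -1.13 (SE 0.38, unadjusted p = 0.00747, adjusted p = 0.981) on 1371442_at and -1.06 (SE 0.31, unadjusted p = 0.00248, adjusted p = 0.959) on 1370665_at. Without SD air replicate 2 these were -0.98 and -1.06 (adjusted p = 0.810 for both), so a strain difference in the Hyou1 response was not called over the table either way.

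Summed signals of cell type markers were set beside Hyou1, and 6 of 14 lists had their highest sum on an array of SD rats in SO2: mucous, T and NK, club, ciliated, and alveolar type I and type II cells. Of 6 mucous cell markers, 3 were on the array, Muc5ac, Tff3 and Clca1, and their summed signal was 495 to 718 in SH rats in SO2, 373 to 657 in SH rats in air, 719 to 2191 in SD rats in SO2 and 326 to 860.0 in SD rats in air. Clca1, a secreted protein of mucous cells, had 382 to 1897 in SD rats in SO2, against 125 to 492 in SD rats in air. Muc5ac, a gel-forming mucin, had 95.3 to 182 in SD rats in SO2, against 30.8 to 86.7 in SD rats in air. As the dimmest of the 3, Muc5ac was left out of the test, and 2 were tested. SD groups in SO2 and air did not overlap for 3.54% of tested probe sets. Tff3, a trefoil peptide of mucous cells, did not follow Clca1 and Muc5ac. It had 198 to 280.5 in SD rats in SO2, against 167 to 338 in SD rats in air. In SH rats in SO2 Tff3 had 260.4 to 336. The 8 T and NK cell markers were all on the array, and summed to 2421 to 2875 in SH rats in SO2, 2512 to 2933 in SH rats in air, 2543 to 4392 in SD rats in SO2 and 2488 to 3781 in SD rats in air. Club cell markers (3 of 6 on the array) summed to 28188 to 30995 in SH rats in SO2, 27794 to 30507 in SH rats in air, 30500.4 to 44270.3 in SD rats in SO2 and 30071 to 34107 in SD rats in air. Most of this sum was Scgb1a1, with 24386 to 36625 in SD rats in SO2, against 24285 to 28437 in SD rats in air. Cyp4b1 did not follow it, with 3777 to 6246 in SD rats in SO2, against 4177 to 6347 in SD rats in air. Nor did Cyp2f4, with 1399 to 1737.5, against 988 to 1874.5. In SH rats Cyp2f4 had 693 to 898 in air and 567 to 838 in SO2. The latter lay below all SD arrays in SO2, as did 2.76% of tested probe sets. Scgb1a1 and Cyp4b1 overlapped between strains in SO2, with 24044 to 26983 and 2584 to 3902 in SH rats. Club markers gave 2 calls over the 7 comparisons. Calls over the table came only between strains, 0.81% in SO2 and 1.53% averaged over both exposures. Ciliated cell markers (3 of 6 on the array) summed to 5138.5 to 6047 in SH rats in SO2, 4731 to 5427 in SH rats in air, 5553 to 7424 in SD rats in SO2 and 4858.5 to 6190.4 in SD rats in air. Most of this sum was Tubb4b, a tubulin, with 4854 to 6186 in SD rats in SO2, against 3974 to 5261 in SD rats in air. Tekt1 had 415.2 to 737.7 in SD rats in SO2, against 379.7 to 419.5 in SD rats in air. In SH rats Tekt1 had 347.8 to 569.6 in SO2, against 348 to 445.8 in air. Foxj1 had 283.5 to 669.9 in SD rats in SO2, against 461.3 to 522.5 in SD rats in air. Type II cell markers (7 of 8) summed to 98090 to 114122 in SH rats in SO2, 100748 to 106534 in SH rats in air, 99337 to 131053 in SD rats in SO2 and 102883 to 106658 in SD rats in air. Type I cell markers (5 of 6) summed to 43647 to 47677 in SH rats in SO2, 44621.5 to 47500 in SH rats in air, 40754 to 51002 in SD rats in SO2 and 45370 to 46952 in SD rats in air, so that SD rats in SO2 held both the highest and the lowest sum. Heart muscle markers (5 of 6) summed to 1971 to 3321 in SH rats in SO2, 1849 to 2876 in SH rats in air, 984 to 2092 in SD rats in SO2 and 1742.5 to 3544.5 in SD rats in air. None of the 59 markers on the array was at 0 on any array, but no detection calls were used. Lep, an adipocyte marker, had 7.8 to 23.8, where the 10th percentile of the arrays was 17.0 to 26.8. Some markers did not pass the filter. Of those on the array, 2 of 3 mucous, 6 of 8 T and NK, 4 of 5 heart muscle and 2 of 4 adipocyte markers were tested. Of 8 B and plasma cell markers 1 was on the array, so that list could not be read. The part of these cell types in the Hyou1 values was not tested.

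Outside the members, the genes whose log2 signals were most like that of Hyou1 1371442_at over the 16 arrays were Hap1 (r = 0.82), Gp2 (0.82), Nkg7 (0.82), Gzmk (0.82) and Ttc1 (0.81), out of 8059 genes compared. Nkg7 and Gzmk are cytotoxic lymphocyte genes. With group means taken away they were Abcf3 (0.86), Tff3 (0.86), Pdlim3 (0.85), Folr2 (0.84) and Marveld1 (0.83), and of these Tff3 is the mucous marker whose group ranges, above, did not follow those of Hyou1. This look-up for Hyou1 was made after its values had been seen, and the arrays share the exposure groups.

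None of the other ER chaperones among the members was called in any of the 7 comparisons. Hspa5 encodes BiP (GRP78), the main ER chaperone of the Hsp70 family and the usual readout of the response. The Hspa5 signal in SH rats was 3154, 3504, 3555 and 3799 in SO2, against 3236, 4169, 4310.4 and 3764 in air. Its values in SD rats were 3777, 3650.5, 3351 and 4838 in SO2, against 5185, 3329.7, 3559 and 3694 in air. All 4 groups overlapped, and the 2 highest signals were 1 SD array in each exposure, SO2 replicate 4 and air replicate 1. The SO2 effect was -0.14 (interval -0.43 to 0.15, adjusted p = 0.960) in SH rats and -0.0055 (interval -0.30 to 0.29, adjusted p = 0.997) in SD rats. A log2 change of Hspa5 below -0.43 or above 0.29 lay outside both intervals. The strain difference was -0.15 (SE 0.14) in SO2 and -0.013 (SE 0.14) in air. Leaving out SD air replicate 2 gave -0.086 in air, and an SO2 effect in SD rats of -0.079.

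Hsp90b1 encodes GRP94, the ER member of the Hsp90 family. The Hsp90b1 signal in SH rats was 4056, 3349, 3161 and 5222 in SO2, against 4092, 4286, 4659 and 4294 in air. SD rats had 4066, 4419, 4502 and 3784 in SO2, against 5138, 3603, 3403 and 3649 in air. SH SO2 replicate 4 and SD air replicate 1 had the 2 highest signals, and the groups overlapped. The SO2 effect was -0.16 (interval -0.46 to 0.14) in SH rats and 0.10 (interval -0.20 to 0.40) in SD rats, with adjusted p-values of 0.951 and 0.895. The strain difference was -0.11 (SE 0.14) in SO2 and 0.15 (SE 0.14) in air. With SD air replicate 2 left out, the SO2 effect in SD rats was 0.066 and the strain difference in air 0.11.

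Calr encodes calreticulin, a calcium-binding lectin chaperone of the ER lumen that holds glycoproteins while they fold. The Calr signal in SH rats was 2462, 3346, 3344 and 3146 in SO2, against 2920.2, 2626, 2789 and 3387 in air. For SD rats the signal was 2999.9, 2535, 2916 and 3626 in SO2, against 3543, 2555, 2737 and 3653 in air. Its groups overlapped throughout, and the SO2 effect was 0.064 (interval -0.23 to 0.36) in SH rats and -0.042 (interval -0.34 to 0.25) in SD rats. Pdia4 encodes ERp72, a protein disulfide isomerase. The Pdia4 signal in SH rats was 679.9, 773, 883 and 986 in SO2, against 755, 755, 793 and 869 in air. The SD arrays had 964, 647, 924 and 1099 in SO2, against 944, 692, 780.4 and 950.2 in air. Its SO2 effect was 0.054 (interval -0.27 to 0.38) in SH rats and 0.095 (interval -0.23 to 0.42) in SD rats. Leaving out SD air replicate 2 gave SO2 effects in SD rats of -0.13 for Calr and 0.0071 for Pdia4, and strain differences in air of -0.17 for Calr and -0.16 for Pdia4, against -0.080 and -0.074 with it. Adjusted p-values with all arrays for the SO2 effects on Calr and Pdia4 in the 2 strains were between 0.915 and 0.982. Calr and Pdia4 went together from array to array: their log2 signals correlated at r = 0.80 over the 16 arrays and at 0.84 with group means taken away, the closest pair among the members, as a description of arrays that also share sample preparation.

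**Figure D2:**
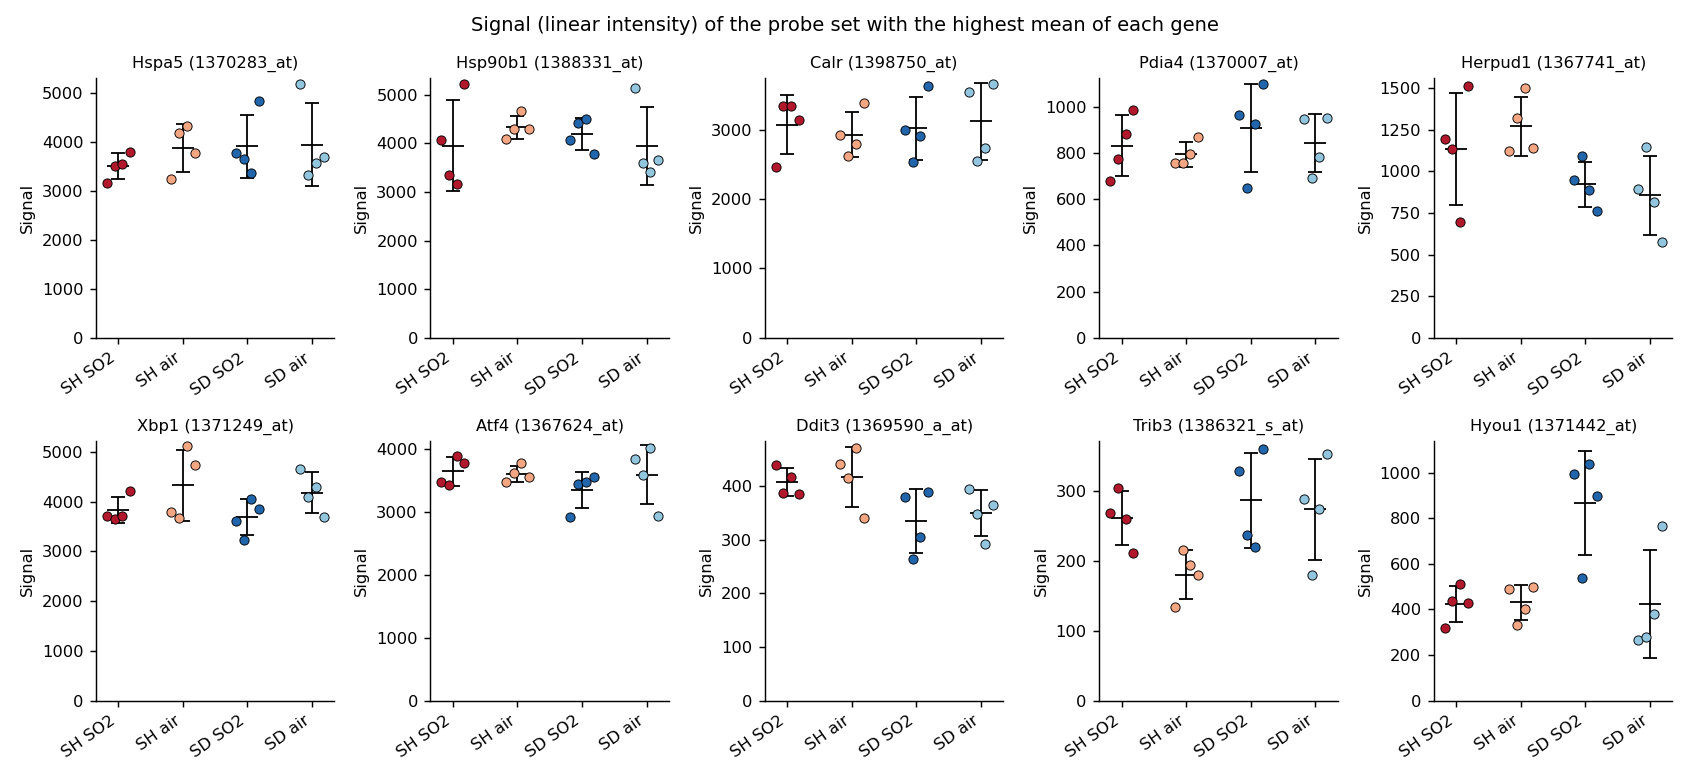
Signal (linear intensity, vertical axes from 0, each gene on its own scale) of the brightest probe set of each of the 10 genes on the 16 arrays, with points for arrays and bars for the mean and SD of each group (n = 4). Hyou1 is highest in the SD SO2 group, Herpud1 is higher in both SH groups than in the SD groups on average, and Hspa5, Hsp90b1, Calr, Pdia4 and Atf4 overlap in all 4 groups.

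Herpud1 encodes HERP, an ER membrane protein that assembles the degradation machinery for misfolded proteins. The Herpud1 signal in SH rats was 1192, 1131, 697 and 1509.7 in SO2, against 1124, 1319, 1498 and 1137 in air. Its values in SD rats were 948, 1089.6, 885 and 763 in SO2, against 891, 1146, 815 and 573 in air. In air, 3 of the 4 SD arrays lay below all SH arrays, and the one inside the SH range was SD air replicate 2, the array that went against its label. The difference, SH minus SD, was 0.59 in air (SE 0.21, interval 0.16 to 1.02, unadjusted p = 0.0101, adjusted p = 0.523) and 0.25 in SO2 (SE 0.21, adjusted p = 0.729). Averaged over both exposures the strain difference was 0.42 (SE 0.15, adjusted p = 0.205), and without SD air replicate 2 it was 0.50 (adjusted p = 0.0809), and 0.74 (adjusted p = 0.149) in air alone. None of these passed. The SO2 effect was -0.20 (SE 0.21) in SH rats and 0.13 (SE 0.21) in SD rats, or 0.29 (adjusted p = 0.755) in SD rats without that array. Herpud1 and Hyou1 are the 2 members with ERSE-II letters in their windows. With group means taken away, Herpud1 and Hyou1 1371442_at correlated at r = -0.69, and Herpud1 and Hyou1 1370665_at at -0.039. Whether these letters act in these lungs was not tested.

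Of the transcription factors, Xbp1 encodes the one that is made from a spliced message. The Xbp1 signal in SH rats was 3721, 3655, 3715 and 4225 in SO2, against 3788, 3667, 5126 and 4736 in air. SD rats had 3622, 3223, 4056 and 3865 in SO2, against 4665, 4089.6, 4304 and 3685 in air. The means were lower in SO2 than in air in both strains, with overlapping arrays. The SO2 effect was -0.16 (interval -0.41 to 0.080) in SH rats and -0.18 (interval -0.42 to 0.064) in SD rats. Averaged over both strains it was -0.17 (SE 0.083, unadjusted p = 0.0504, adjusted p = 0.591). The effect in SD rats was -0.19 without SD air replicate 2, and the strain difference in air was 0.039 with that array and 0.030 without it.

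Atf4 encodes the factor downstream of PERK, which is controlled largely through translation. The Atf4 signal in SH rats was 3471, 3436, 3901 and 3778 in SO2, against 3474, 3618, 3775 and 3565 in air. For SD rats the signal was 2918, 3450.5, 3480.1 and 3562 in SO2, against 3841, 3590.4, 4022 and 2938 in air. Apart from SD SO2 replicate 1 and SD air replicate 4, all arrays lay between 3436 and 4022.5 units. Atf4 was the steadiest member: its pooled SD within groups was 0.13 on the log2 scale, and 5.39% of the tested probe sets had a smaller one, where the median over all tested was 0.25. The widest pooled SD among the members was that of Hyou1 1371442_at, 0.44. The SO2 effect on Atf4 was 0.014 (interval -0.20 to 0.23) in SH rats and -0.096 (interval -0.31 to 0.12) in SD rats, and neither passed. It was -0.094 in SD rats without SD air replicate 2, and the strain difference in air was 0.013 with that array and 0.016 without it.

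Ddit3 encodes CHOP, a target of ATF4 linked to cell death in prolonged ER stress. The Ddit3 signal in SH rats was 439.6, 386, 416 and 386 in SO2, against 441, 416, 472 and 339.5 in air. The SD arrays had 379, 264, 305 and 388 in SO2, against 395, 348, 293 and 364 in air. The SH means lay above the SD means in both exposures, and the groups overlapped. The strain difference was 0.29 (SE 0.15, adjusted p = 0.536) in SO2, 0.24 (SE 0.15, adjusted p = 0.840) in air and 0.26 (SE 0.10, unadjusted p = 0.0210, adjusted p = 0.288) averaged over both. The SO2 effect was -0.026 (interval -0.34 to 0.28) in SH rats and -0.072 (interval -0.38 to 0.24) in SD rats. Its SO2 effect in SD rats was -0.072 without SD air replicate 2, and the strain difference in air was 0.24 with that array and 0.24 without it. The genes most like Ddit3 over the 16 arrays were Lrat (r = 0.91), Snap23 (0.85), Mmrn1 (0.84), Aox1 (0.81) and Rab6b (0.80). With group means taken away they were Dock8 (0.91), Lrat (0.88), Cplx1 (0.84), Aox1 (0.83) and Hunk (0.81). For Hspa5 they were Aqp4 (0.76), Hsp90ab1 (0.73), Tff1 (0.72), Atp6v0c (0.71) and Emp3 (0.69), and Eif4e3 (0.86), Gsta4 (0.80), Tax1bp1 (0.78), Hsp90ab1 (0.77) and Rpl3 (0.76) with group means taken away. Of these, Hsp90ab1, a cytosolic Hsp90, was like Hspa5 on both measures, and none of the other 9 members was among the 5 most like either gene.

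Trib3 encodes a pseudokinase induced by ATF4 and CHOP that restrains them in turn. On its probe set 1370694_at, SH rats had 152, 154, 134 and 143 in SO2, against 93.1, 117, 77.5 and 81.7 in air. SD rats had 108, 139, 158 and 167 on it in SO2, against 81.6, 97.4, 138 and 131 in air. All 4 SO2 arrays of SH rats lay above all 4 air arrays, which made it 1 of 12 member probe sets that were higher without overlap in this comparison, where 2.15% of all tested probe sets were. The log2 difference was 0.59 (SE 0.23, interval 0.11 to 1.07, unadjusted p = 0.0187) in SH rats, and it did not pass over the table (adjusted p = 0.949). In SD rats it was 0.32 (SE 0.23, adjusted p = 0.729), and averaged over both strains 0.46 (SE 0.16, adjusted p = 0.439). The SD value without SD air replicate 2 was 0.27 (adjusted p = 0.827), and the strain difference in air was -0.23 with that array and -0.28 without it.

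The probe set 1386321_s_at of Trib3 had 269, 303, 260.3 and 211 in SH rats in SO2, against 133, 216, 193 and 179 in SH rats in air. It had 328, 237, 219.7 and 359.6 in SD rats in SO2, against 288, 179, 274 and 353 in SD rats in air. SH rats in air had the lowest mean, and their highest array (216) lay within the ranges of SH rats in SO2 and of SD rats in air and below all arrays of SD rats in SO2. In SD rats in air, only replicate 2 (179), the array that went against its label, lay below 216. The other 3 groups overlapped. Its SO2 effect was 0.50 (SE 0.21, adjusted p = 0.949) in SH rats and 0.071 (SE 0.21, adjusted p = 0.953) in SD rats. The strain difference in air was -0.54 (SE 0.21, adjusted p = 0.644). The SO2 effect in SD rats without SD air replicate 2 was -0.11, of the other sign (adjusted p = 0.932), and the strain difference in air was -0.72 (adjusted p = 0.160). The third probe set, 1370695_s_at, ran from 17.5 to 246 units, down to the 10th percentile of the arrays (17.0 to 26.8), was left out of the test and gives no direction. The probe sets with an s in their name may match more than 1 transcript by the maker's naming.

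Taken over the table, the members gave 0 calls for SO2 in SH rats, in SD rats and averaged over both strains, and 0 for the difference of the SO2 effects between strains. The limma fit called 0% of the 11106 probe sets in each of these 4 comparisons. At an unadjusted p under 0.05, 2 of the 12 member probe sets passed in each of the 4, against 4.84% of all tested in SH rats, 8.24% in SD rats, 8.45% averaged over both strains and 4.65% for the difference. No member had SO2 and air groups without overlap in SD rats, where 3.54% of the table had. The members with an unadjusted p under 0.05 were Trib3 1386321_s_at and 1370694_at in SH rats and both Hyou1 probe sets in SD rats and for the difference. Averaged over both strains they were Hyou1 1371442_at and Trib3 1370694_at. By gene, 4 of 10 differences in SH rats were above 0 with a median of -0.028, beside a median of 0.017 over all tested probe sets. In SD rats 5 of 10 were above 0 with a median of 0.033, beside 0.017. Without SD air replicate 2, 0 members were called in each of the 4 as well.

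**Figure D3:**
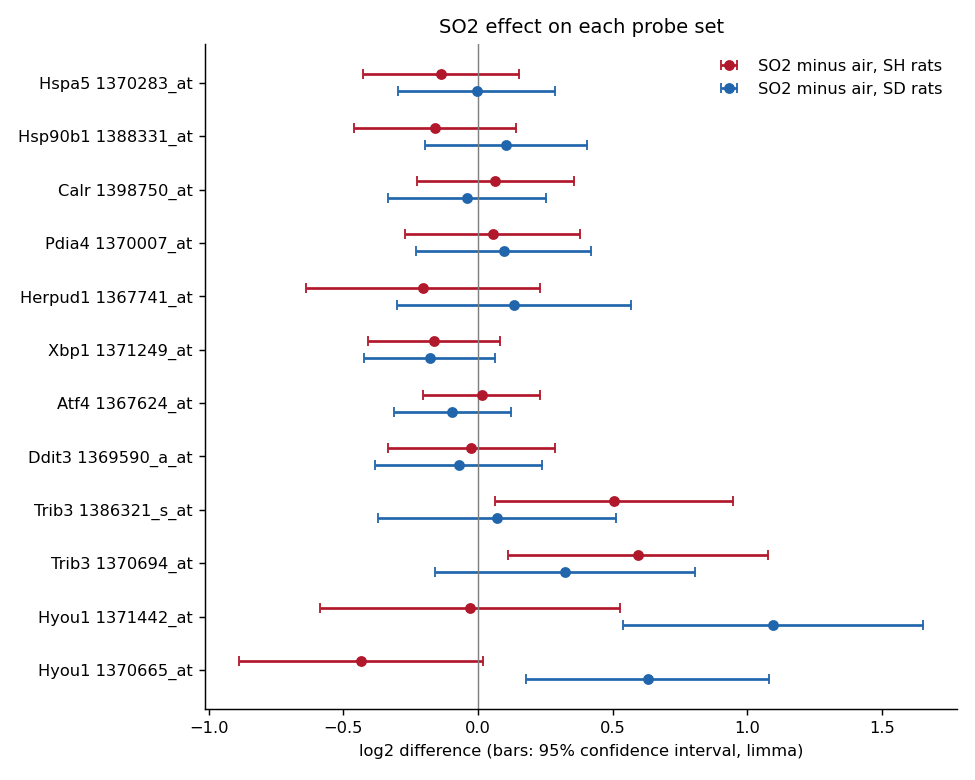
SO2 effect on each of the 12 tested probe sets, as the log2 difference SO2 minus air (horizontal axis) with its 95% confidence interval from limma, SH rats above SD rats for each. Both Hyou1 intervals in SD rats (0.54 to 1.65 and 0.18 to 1.08) and both Trib3 intervals in SH rats lie above 0, and no adjusted p passed.

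Between strains, the members gave 0 calls in air, where 0% of the table was called and 6.38% had an unadjusted p under 0.05, against 2 of 12 member probe sets, Herpud1 and Trib3 1386321_s_at. Averaged over both exposures 0 members were called, where 1.53% of the table was, and 5 of 12 had an unadjusted p under 0.05, beside 11.6% of the table. Without SD air replicate 2 the table's calls in air numbered 86 and its calls averaged over both exposures 274, in place of 0 and 170, and the members again gave 0 in both. The median over the 10 genes was -0.041 in SO2, 0.026 in air and -0.0033 averaged over both, beside medians of 0.00042, 0.00096 and 0.0016 over all tested probe sets. With all arrays, no member had groups without overlap between strains in air, where 4.02% of the table had. Without SD air replicate 2, Herpud1 was higher on all SH air arrays (1124 to 1498) than on the remaining SD air arrays (573 to 891). Trib3 1386321_s_at was then lower on all SH air arrays (133 to 216, against 273.5 to 353). The share of the table that separated without that array was not counted. Leaving out an array can only add separations, so the 4.02% with all arrays is not a background for them. Whether these separations set the members apart from the table was therefore not tested.

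**Figure D4:**
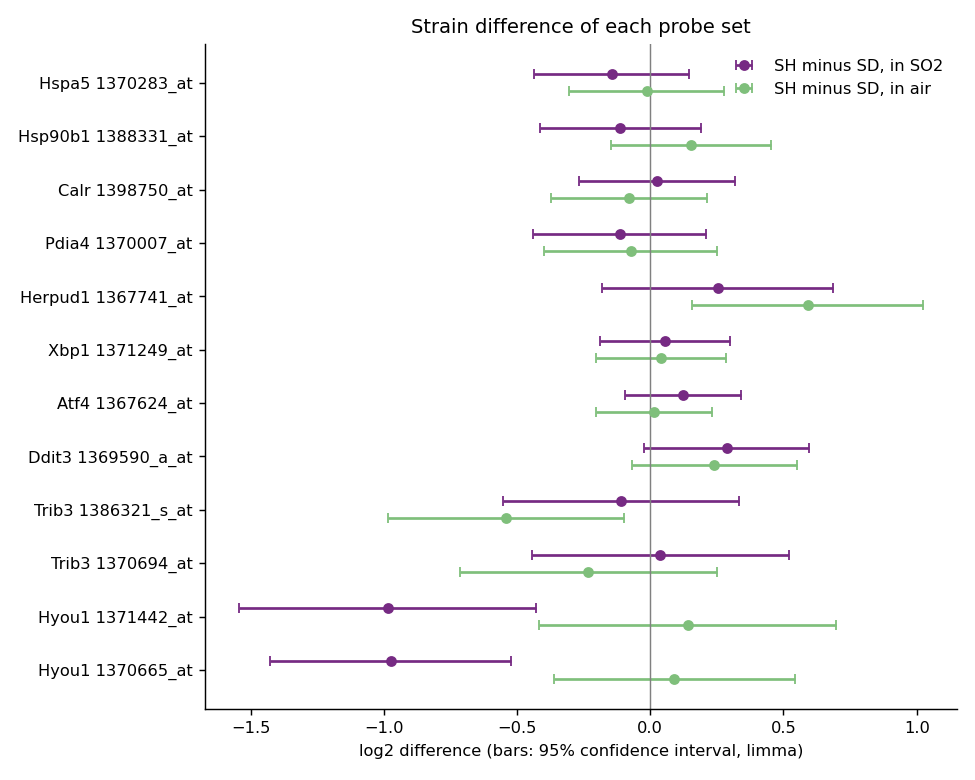
Strain difference of each of the 12 tested probe sets, as the log2 difference SH minus SD (horizontal axis) with its 95% confidence interval from limma, in SO2 above and in air below for each. Both Hyou1 probe sets lie near -1 in SO2 (-0.99 and -0.97) and near 0 in air (0.14 and 0.090), and Herpud1 lies above 0 in air (0.59).

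The rest of the pathway was read from 7 lists of 115 other genes, of which 100 were on the array and 96 were tested. SO2 gave 0 calls among the 96 in either strain, where 0% of the table was called. Their median was -0.030 in SH rats and 0.0033 in SD rats, beside 0.017 over all tested probe sets in each strain. Among 17 tested targets of ATF4 and the integrated stress response, 12 lay above 0 in SH rats (median 0.087) and 11 in SD rats (median 0.093), and 0 were called. Among 17 other ER chaperones and co-chaperones, 13 lay below 0 in SH rats (median -0.051) and 12 in SD rats (median -0.042), and 0 were called. The member of that list with the smallest p was Serpinh1, the collagen chaperone HSP47, with a difference of -0.44 in SD rats (adjusted p = 0.428) and of -0.39 averaged over both strains (adjusted p = 0.232). Among 16 tested ER-associated degradation genes, the lowest and highest differences were -0.30 and 0.17 in SH rats, and -0.51 and 0.28 in SD rats, where the lowest was Derl2, a retrotranslocation subunit (adjusted p = 0.470). The sensors (6 tested), oxidoreductases (12), translocation and glycosylation genes (22) and ER stress cell death genes (6) had medians between -0.062 and 0.079 in SH rats and between -0.027 and 0.026 in SD rats.

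**Figure D5:**
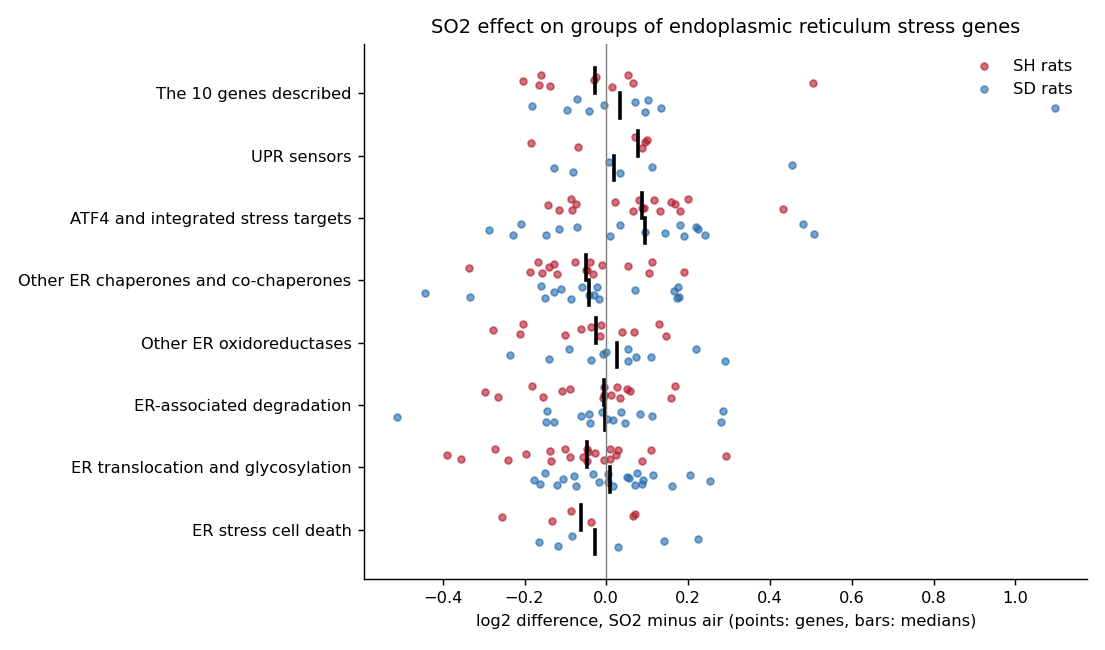
SO2 effect on the 10 genes described and on the 7 other lists, as the log2 difference SO2 minus air (horizontal axis), with 1 point for each gene (its brightest probe set) and a bar for the median, SH rats above SD rats. All medians lie between -0.062 and 0.093, and the point farthest from 0 is Hyou1 in SD rats (1.10).

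Between strains 2 of these 96 genes were called, both lower in SH rats averaged over both exposures, where 0.801% of the table was called lower. Psat1, a serine synthesis enzyme and ATF4 target, differed by -0.65 (SE 0.16, adjusted p = 0.0455). Qsox1, a disulfide-forming oxidase, differed by -0.57 (SE 0.12, adjusted p = 0.0135) on 1368024_at, and by -0.48 (adjusted p = 0.364) on its other probe set. The Qsox1 call held under every alternative run (adjusted p from 0.00538 to 0.0415). The Psat1 call was lost (adjusted p from 0.0561 to 0.113) when replicate 2, 3 or 4 of SH rats in SO2, 1, 3 or 4 of SH rats in air, 1, 3 or 4 of SD rats in SO2, or 1, 3 or 4 of SD rats in air was left out. Without SD air replicate 2 the differences were -0.77 for Psat1 and -0.62 for Qsox1, and both were called. In SO2 alone the differences were -0.79 (adjusted p = 0.135) for Psat1 and -0.57 (adjusted p = 0.142) for Qsox1 1368024_at. There 0 of the 96 were called, beside 0.81% of the table. Pdia5, a disulfide isomerase, had a difference of 0.51 between SH and SD rats in SO2 with an adjusted p of 0.193. Ganab, a glycan-trimming glucosidase subunit, had a difference of -0.61 between its SO2 effects in SH and SD rats (adjusted p = 0.981).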

How the data were processed

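Lung total RNA of 16 rats, labelled with biotin, was measured on 1-colour Affymetrix arrays. The deposited table holds 1 intensity for each of 15923 probe sets and array on a linear scale. The authors used GCOS, per the submitters' processing notes, without a version or an algorithm in the sources used here. No detection calls were used, and 57 control probe sets were left out.

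Gene symbols came from the platform annotation: 12783 probe sets had 1 symbol, 312 had several and 2771 had none, and only those with 1 were named. From the deposited intensities, log2(intensity + 16) was tested in R 4.3.3 with limma 3.58.1 (lmFit and eBayes with a trend on mean level) in 7 comparisons, leaving out the dimmest 30% of probe sets by mean log2 value. Adjustment was by Benjamini-Hochberg over all probe sets in the fit. The fit was tested on simulated data. Where a gene had several probe sets, the one with the highest mean stood for it in counts of genes, and all are given. Promoters came from RefSeq on GRCr8 and were searched with Python 3.11.15.

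Groups came from the sample labels. The 4 arrays of a group are biological replicates per the labels, and no 2 arrays held identical values. Precision is limited by the number of arrays. The members and the lists were chosen with earlier results of these data known. All members were named, and from the other lists every gene called and genes among the 2 with the smallest p in a comparison. Alternatives were offsets of 1 and 64, quantile normalization, no filter, 50% left out, no variance trend, the actin ratio as covariate, the replicate number as a block and each array left out in turn.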

Additional observations from a re-analysis of the deposited data

Results flagged for a closer look

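Over 52 sets of 4 arrays, 1 for each member probe set and group, 4 held an array whose gap to the nearest of the others was large against the range of the group by Dixon's criterion. Chance gives about 1 in 20. Trib3 1370695_s_at had 67.9 in SH air replicate 4, against 148 to 170.0 on the other 3 arrays of the group, and it is a dim probe set that was not tested. Xbp1 had 4224.8 in SH SO2 replicate 4, against 3655 to 3721 on the others. Atf4 had 2918 in SD SO2 replicate 1, against 3450.5 to 3562 on the others. Hsp90b1 had 5138.2 in SD air replicate 1, against 3403 to 3649 on the others.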

How the results depend on the processing

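The lack of member SO2 calls did not depend on offset, quantile normalization, filter, variance trend or the actin ratio as a covariate. These gave 0 in each strain, averaged and for the difference. However, 1 member was called in SD rats without SD air replicate 4. In that comparison, leaving out 1 array at a time gave 0 to 3 calls over the table. The Hyou1 call between strains in SO2 was lost with no filter (0 member calls) and with the lowest 50% left out (0), where its probe set 1370665_at was not tested. In air, calls over the table numbered 5 with an offset of 64, 1 with no filter, 1 without a variance trend and 1 with the actin ratio as covariate. The alternatives for the other pathway genes were added after seeing the data, and 1 of their 2 calls between strains was left with no filter and 1 without a variance trend. With the actin ratio as covariate, differences near 0 changed sign in SH rats for Hyou1 1371442_at (0.13) and Ddit3 (0.0023), in SD rats for Hspa5 (0.024), Herpud1 (-0.0043) and Calr (0.060), between strains in air for Hspa5 (0.0082) and Pdia4 (0.0058), and between strains averaged over both exposures for Hsp90b1 (-0.012) and Calr (0.039). With quantile normalization they did so for Hspa5 in SD rats (0.012) and, averaged over both strains, for Atf4 (0.0094) and Hsp90b1 (0.018). The cause was not tested. Another 652 values under these settings kept their direction and their side of the threshold.

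Leaving out 1 array at a time gave these ranges. For SO2 against air in SH rats, calls over the table ranged from 0 to 1, and the log2 differences took both signs for Hyou1 1371442_at from -0.14 to 0.097, Herpud1 1367741_at from -0.36 to 0.0079, Ddit3 1369590_a_at from -0.12 to 0.035, Atf4 1367624_at from -0.019 to 0.042, Pdia4 1370007_at from -0.032 to 0.14. For SO2 against air in SD rats, calls over the table ranged from 0 to 3 and member calls ranged from 0 to 1, and the log2 differences took both signs for Hspa5 1370283_at from -0.11 to 0.13, Herpud1 1367741_at from -0.041 to 0.29, Trib3 1386321_s_at from -0.11 to 0.20, Ddit3 1369590_a_at from -0.15 to 0.030, Pdia4 1370007_at from -0.0033 to 0.25, Calr 1398750_at from -0.13 to 0.039. For SO2 effect in SH minus SO2 effect in SD rats, the log2 differences took both signs for Ddit3 1369590_a_at from -0.055 to 0.13, Xbp1 1371249_at from -0.058 to 0.10, Pdia4 1370007_at from -0.19 to 0.057. For SH against SD rats in air, calls over the table ranged from 0 to 86, and the log2 differences took both signs for Hyou1 1371442_at from -0.030 to 0.46, Hspa5 1370283_at from -0.086 to 0.13, Xbp1 1371249_at from -0.047 to 0.11, Atf4 1367624_at from -0.080 to 0.070, Calr 1398750_at from -0.17 to 0.0010. For SH against SD rats in SO2, calls over the table ranged from 50 to 115 and member calls ranged from 0 to 2, and the log2 differences took both signs for Trib3 1386321_s_at from -0.22 to 0.0048, Trib3 1370694_at from -0.075 to 0.11, Xbp1 1371249_at from -0.0079 to 0.10, Calr 1398750_at from -0.053 to 0.13. For SO2 against air averaged over both strains, calls over the table ranged from 0 to 11, and the log2 differences took both signs for Herpud1 1367741_at from -0.12 to 0.071, Ddit3 1369590_a_at from -0.095 to 0.0019, Hsp90b1 1388331_at from -0.10 to 0.037, Calr 1398750_at from -0.035 to 0.062. For SH against SD rats averaged over both exposures, calls over the table ranged from 112 to 274 and calls among the other pathway genes ranged from 1 to 2, and the log2 differences took both signs for Hsp90b1 1388331_at from -0.052 to 0.087, Calr 1398750_at from -0.072 to 0.025.

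The deviations of same-numbered arrays correlated at r from -0.25 to 0.15. Arrays with different numbers were not compared, so this does not settle whether the numbers pair the rats. The main fit did not use the numbers. With the replicate number as a block, 86 probe sets were called between strains in SO2, 158 averaged over both exposures and 0 in the other comparisons, and the same numbers of members were called as without the block.

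With 4 arrays in a group, differences between groups well under the intervals given could not be seen. Signals of the dim Trib3 and Hyou1 1370665_at probe sets are closest to the background.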
